A study of Homo sapiens with 33 samples.

Results

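10 genes of the nuclear lamina and of chromatin, among them several whose loss is a commonly used sign of senescence, were followed through palbociclib treatment and its withdrawal in cell lines of malignant pleural mesothelioma (MPM). The set was chosen by gene name with earlier results of these data known. Counts of members beside a background share therefore describe the set and do not test it. The set holds the lamins LMNB1, LMNB2 and LMNA, the lamin B receptor LBR, the high mobility group genes HMGB1 and HMGB2, and the chromatin regulators EZH2, DNMT1, UHRF1 and SUV39H1. All 10 were found among the 58302 genes of the expression matrix, and all 10 passed the filter on low values in every comparison. The series holds 33 RNA-seq libraries of 6 established human cell lines. Palbociclib is an inhibitor of the cyclin-dependent kinases CDK4 and CDK6, which act on the retinoblastoma protein at the entry to S phase. Of the 6 lines, the study classes 4 MPM lines as sensitive to the drug: H28, H2052, H2452 and MSTO-211H. MPP89, an MPM line in which the study describes a defect of RB1, is resistant. So is MeT-5A, a normal mesothelial line immortalised with an SV40 antigen. The study has further resistant lines, derived from patients, that are not in this series, and in some of them it found no RB1 defect.

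DMSO cultures received 0.1% of the solvent, and treated cultures received 1 µM palbociclib, for 9 or 10 days. There were 2 experiments with a DMSO and a palbociclib library for H2052, 3 each for H2452, H28 and MSTO-211H, 2 for MPP89 and 1 for MeT-5A. This gave 11 pairs in the sensitive lines and 3 in the resistant lines. In 1 experiment of each sensitive line, another culture was treated for 10 days and then grown without drug for 48 h (washout), and 1 library came from untreated MeT-5A cells. The experiments of a line are repeats on that line and not further tumours, so tests within a line measure the spread between its experiments. Tests pooled over lines, and the test of sensitive against resistant lines, also take in differences in response between lines. They count each experiment as a unit, although experiments of a line share its response. Their intervals and FDR values may thus be too narrow for a spread between lines. Line means were used as units for the pooled sensitive lines, and not for the test of sensitive against resistant lines. The washout tests have 1 experiment per line, so their replicates are the 4 lines. Every library is a bulk culture, in which fewer cells of a kind and less RNA per cell cannot be told apart.

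Values are counts per 20000000 reads (CP20M), and differences are on the log2(CP20M + 10) scale unless a line's levels are given. A gene was called when its fold change was above 1.5 or below the inverse of 1.5 with a Benjamini-Hochberg adjusted p (FDR) under 0.05 over all genes tested in limma. The columns add up to 20007662 to 20021400 CP20M, so totals carry no information on depth. The depth could be estimated for 21 libraries, at 12770000 to 19520000 reads, and not for the other 12. The lowest value of any member was 40 CP20M, for EZH2 in a palbociclib library of H2052 whose depth was not among those estimated. KRT8 and KRT18, keratins of mesothelial cells, were present in all 6 lines. MSLN (mesothelin) reached a DMSO mean of 100 CP20M in 4 lines and WT1 in 5, CALB2 (calretinin) did so in 2, and KRT5 stayed at or below 22 CP20M in all 33 libraries. Of markers of other cells, CD3E was at 0 throughout, PTPRC at or below 42, EPCAM at or below 88 and PECAM1 at or below 120 CP20M, whereas CD68, a lysosomal gene also used as a macrophage marker, ran from 123 to 1844 CP20M. CD14, a monocyte marker, ran from 0 to 1130 CP20M and had a DMSO mean of at least 100 CP20M in 3 lines. The share of mitochondrial genes ranged from 0.374% to 1.16% in DMSO and from 0.403% to 2.37% in palbociclib libraries of the sensitive lines, and was 3.80% in the washout library of H28. Its part in the values that follow was not tested.

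Lamins are intermediate filament proteins that form a meshwork under the inner nuclear membrane. B-type lamins stay attached to the membrane through a lipid group, and the lamin B receptor binds them and heterochromatin, whereas the A-type lamins are also found inside the nucleus and dominate in stiff, differentiated tissues. HMGB proteins bend DNA, and the histone and DNA methyltransferases of the set write or copy repressive marks. In cells that enter senescence, loss of lamin B1, of nuclear HMGB1 and HMGB2 and of EZH2 is a commonly used sign of the state, and several of these genes are also transcribed mainly in dividing cells.

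In the sensitive lines 9 of the 10 genes were called lower with palbociclib. The exception was LMNA, whose pooled change was also below 0 but under the fold threshold. The background share called lower was 9.5% of 16759 genes tested, or 1592 genes, with 976 (5.82%) called higher, and the median change of all genes was -0.11 against -1.33 for the 10 members. The order of the pooled changes ran from LMNB1 (-2.81) through HMGB2 (-2.37), UHRF1 (-2.06), EZH2 (-1.97), LBR (-1.38), HMGB1 (-1.29), LMNB2 (-1.01), SUV39H1 (-0.87) and DNMT1 (-0.81) to LMNA (-0.31). The 9 calls held when the experiment was not used as a block, when the 4 line means were the units and under both other scalings of the libraries. These scalings raised the median of all genes by 0.17 and 0.16, and lowered the share of calls that were lower from 62% to 34% and 35.8%. Cycling genes fell in the same libraries. MKI67, the proliferation marker Ki-67, fell by 3.10 on the log2 scale, and all 10 genes of a cycling reference list were called lower, with a median of -2.25. The part of the lower share of cycling cells in the members' values was not tested.

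**Figure D1:**
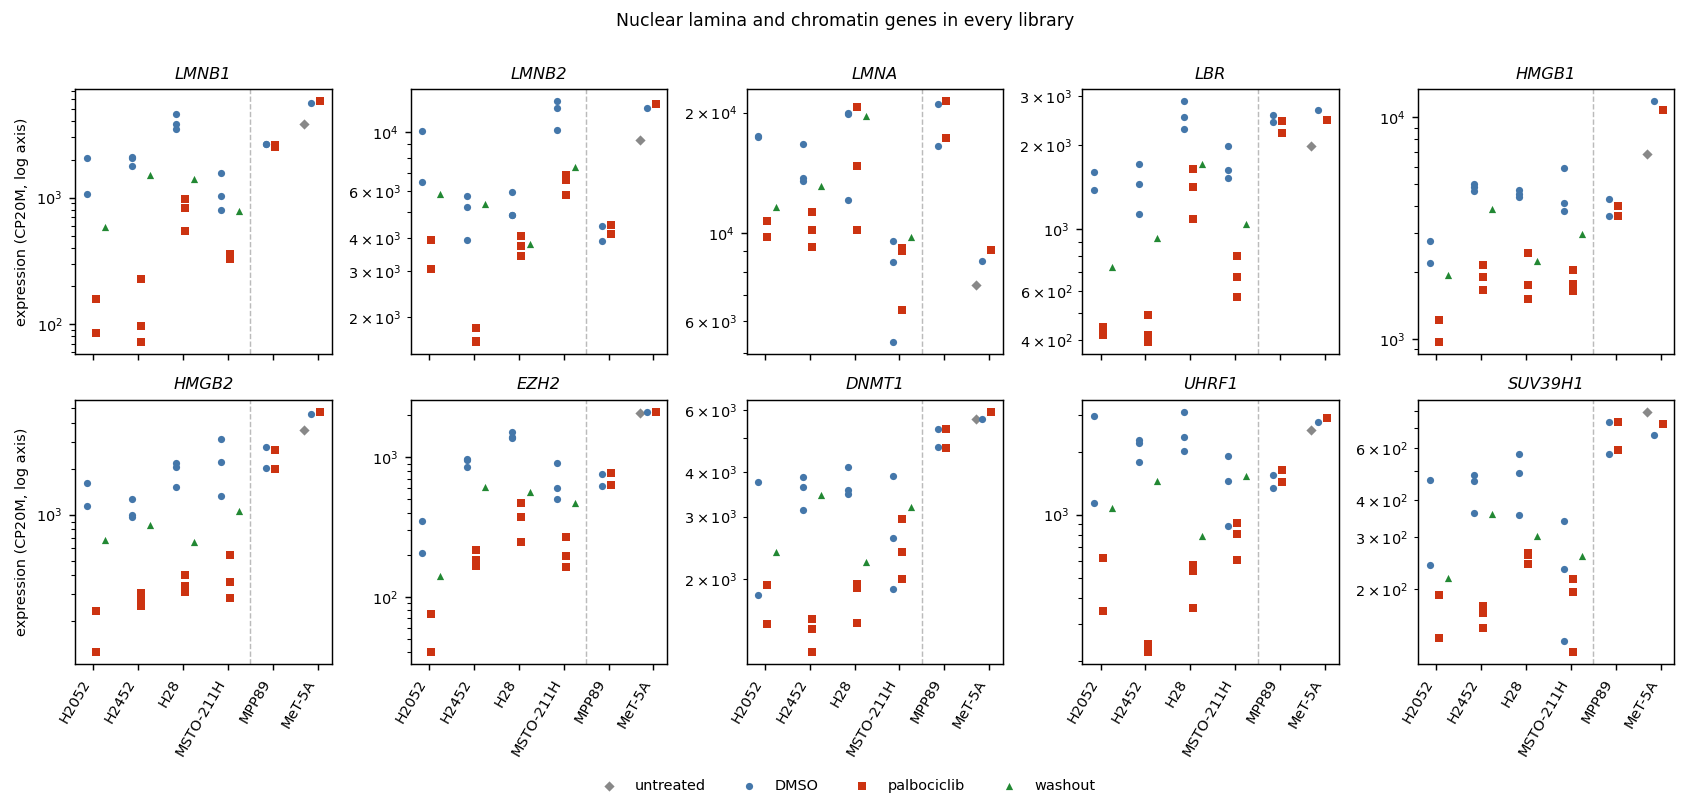
Expression of the 10 genes in each of the 33 libraries, in CP20M on a log axis with a separate range for each gene, by cell line. Circles are DMSO, squares palbociclib, triangles washout and diamonds untreated libraries, and the dashed line separates the sensitive lines from MPP89 and MeT-5A. HMGB2 is the gene in which all 11 palbociclib libraries of the sensitive lines (125 to 546) lie below all 11 DMSO libraries (967 to 3128).

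LMNB1 encodes lamin B1 and lies at chr5:126776623-126837020 on the plus strand (GRCh38). Its level was 2045 and 1062 CP20M in the DMSO libraries of H2052 and 158 and 85 CP20M with palbociclib. In H2452 it was 2080, 1764 and 2066 CP20M in DMSO and 72, 227 and 97 CP20M with the drug. Each palbociclib library of these lines held less LMNB1 than any of the DMSO libraries of all 4 sensitive lines. In H28, LMNB1 was at 4594, 3481 and 3795 CP20M in DMSO and at 833, 971 and 546 CP20M with palbociclib. MSTO-211H had 1036, 796 and 1553 CP20M in DMSO and 357, 340 and 327 CP20M with the drug. The groups did not overlap within any of the 4 lines, but the treated H28 library at 971 CP20M lay above the DMSO library of MSTO-211H at 796 CP20M. The pooled change was -2.81 ± 0.29 (SE, 11 pairs, 95% confidence interval -3.43 to -2.19, limma FDR 7.70e-06), and LMNB1 fell by more than 1.5-fold in 11 of 11 pairs. By line it was 11.7-fold lower in H2052, 15.5-fold in H2452, 5.10-fold in H28 and 3.12-fold in MSTO-211H.

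LMNB2, which encodes the other B-type lamin (chr19:2427638-2456959, minus strand), fell less. The 11 DMSO libraries ranged from 3916 to 13084 CP20M with a median of 5964, and the palbociclib libraries from 1616 to 6871 CP20M with a median of 3723. Treated libraries lay below the DMSO libraries in each line, while the ranges over all lines overlapped. MSTO-211H started highest, at 12341, 10213 and 13084 CP20M in DMSO. The pooled change was -1.01 ± 0.12 (SE, 11 pairs, limma FDR 2.78e-05), and 7 of 11 pairs fell by more than 1.5-fold. LMNB2 was called lower in H2052 (2.34-fold), H2452 (2.90-fold) and MSTO-211H (1.84-fold). In H28 its level was 1.40-fold lower, which was under the fold threshold although the FDR was 0.00797.

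LMNA encodes lamins A and C (chr1:156082573-156140081, plus strand). In H2052 it was at 17328 and 17461 CP20M in DMSO and at 10678 and 9745 CP20M with palbociclib. H2452 had 16664, 13505 and 13748 CP20M in DMSO and 11304, 9222 and 10174 CP20M with the drug. In these lines all treated libraries were below the DMSO libraries. H28 had 19864, 12096 and 19895 CP20M in DMSO and 14681, 10140 and 20610 CP20M with palbociclib. In MSTO-211H the DMSO libraries stood at 9563, 5331 and 8450 CP20M and the treated ones at 9027, 6395 and 9180 CP20M. The groups overlapped in H28 and MSTO-211H. The pooled difference of -0.31 ± 0.10 (SE, 11 pairs, 95% confidence interval -0.53 to -0.09) was under the fold threshold, with an FDR of 0.0198 that rose to 0.327 and 0.251 under the other scalings, with differences of -0.12 and -0.13. LMNA was called only in H2052, at 0.587 of its DMSO level (FDR 0.000481), and this call was lost under both other scalings.

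Ratios between lamins within a library do not depend on how the library was scaled. The ratio of LMNB1 to LMNA fell in 11 of 11 pairs of the sensitive lines, with log2 changes between -4.11 and -1.43 and a median of -2.35. The ratio of LMNB2 to LMNA was lower in 11 of 11 pairs too, with changes between -1.29 and -0.12. LMNB1 also fell relative to LMNB2 in every pair, with a median change of -1.90. In the 3 resistant pairs the ratio of LMNB1 to LMNA moved by -0.14 to -0.05. Per kilobase of the canonical transcript and averaged over the sensitive lines, LMNA stood at 4492 CP20M in DMSO and 3445 CP20M with palbociclib. LMNB2 went from 1641 to 828 CP20M per kilobase and LMNB1 from 745 to 119 CP20M per kilobase. In both conditions LMNA had the highest and LMNB1 the lowest of these means. The order held in each line with palbociclib, but not in DMSO in MSTO-211H and H28. There LMNB2 was at 2563.5 against 2448.5 CP20M per kilobase for LMNA in MSTO-211H. In H28, LMNB1 was at 1369 against 1131 CP20M per kilobase for LMNB2.

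LBR, an inner nuclear membrane protein with a lamin-binding tail and a sterol reductase domain (chr1:225401502-225428925, minus strand), fell in all 4 sensitive lines. The DMSO libraries ranged from 1129 to 2865 CP20M (median 1628) and the palbociclib libraries from 394 to 1641 CP20M (median 573). Within each line every treated library was lower than every DMSO library, and treated H28 cells, at 1087, 1413 and 1641 CP20M, kept the most LBR. The pooled change was -1.38 ± 0.12 (SE, 11 pairs, limma FDR 1.92e-06). LBR was left at 0.295 of its DMSO level in H2052, 0.313 in H2452, 0.400 in MSTO-211H and 0.536 in H28, and 11 of 11 pairs fell by more than 1.5-fold.

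HMGB1 encodes an abundant DNA-bending protein that also acts as a secreted danger signal (chr13:30456704-30617597, minus strand). Its DMSO libraries ranged from 2192 to 5899 CP20M (median 4519) and its palbociclib libraries from 968 to 2446 CP20M (median 1751). The ranges overlapped over all lines only because H2052 started low, at 2776 and 2192 CP20M. The change of HMGB1 was -1.29 ± 0.09 (SE, 11 pairs, limma FDR 3.30e-07), to 0.410 of the DMSO level, and its fold by line was alike, at 2.26 in H2052, 2.42 in H28, 2.48 in MSTO-211H and 2.54 in H2452. HMGB1 has many processed pseudogenes, and 48 rows of the matrix are named as such. Together they held 95 to 459 CP20M per library, 3.88% to 11.6% of the HMGB1 value, and reads shared with them may have been counted for either.

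HMGB2, the paralog found mainly in proliferating cells (chr4:173331376-173334432, minus strand), fell further. It was at 1618 and 1147 CP20M in DMSO and 233 and 125 CP20M with the drug in H2052, and at 967, 996 and 1265 CP20M against 270, 252 and 307 CP20M in H2452. H28 had 2063, 1527 and 2169 CP20M in DMSO and 340, 401 and 313 CP20M with palbociclib, and MSTO-211H had 1319, 2202 and 3128 CP20M against 546, 286 and 361 CP20M. Of the 10 genes it was the one whose 11 treated libraries lay below all 11 DMSO libraries across lines. The pooled change was -2.37 ± 0.16 (SE, 11 pairs, limma FDR 3.30e-07), or 7.58-fold lower in H2052, 3.78-fold in H2452, 5.31-fold in H28 and 5.33-fold in MSTO-211H. Per kilobase and as means over the sensitive lines, HMGB2 was at 1144 CP20M in DMSO and 209 CP20M with palbociclib, and HMGB1 at 755 and 308 CP20M. HMGB2 was below HMGB1 per kilobase in each line with palbociclib, and above it in DMSO except in H2452, at 747 against 889 CP20M.

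EZH2, the catalytic subunit of Polycomb repressive complex 2, methylates lysine 27 of histone H3 (chr7:148807257-148884321, minus strand). Its DMSO libraries ranged from 205 to 1526 CP20M (median 907) and its palbociclib libraries from 40 to 472 CP20M (median 196). Treated libraries were lower than DMSO libraries within each line, and the overlap over all lines came from H2052, whose DMSO libraries had 349 and 205 CP20M. EZH2 fell by 1.97 ± 0.12 on the log2 scale (SE, 11 pairs, limma FDR 1.97e-07), the lowest FDR of the set. The fall was 4.26-fold in H2052, 4.72-fold in H2452, 3.97-fold in H28 and 3.05-fold in MSTO-211H.

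DNMT1 copies DNA methylation onto the new strand after replication (chr19:10133342-10231286, minus strand), and UHRF1 is the protein that brings it to hemimethylated sites (chr19:4903080-4962154, plus strand). DNMT1 was at 3746 and 1805 CP20M in DMSO and 1917 and 1489 CP20M with palbociclib in H2052, and at 3644, 3135 and 3893 CP20M against 1240, 1539 and 1444 CP20M in H2452. In H28 it was at 4130, 3474 and 3563 CP20M in DMSO and 1890, 1934 and 1504 CP20M with the drug. MSTO-211H showed no call, with DNMT1 at 2615, 1868 and 3896 CP20M in DMSO and at 2957, 1996 and 2386 CP20M with palbociclib. The groups overlapped in MSTO-211H and H2052 and were apart in H2452 and H28. The pooled change of DNMT1 was -0.81 ± 0.15 (SE, 11 pairs, limma FDR 0.000753). It was 2.52-fold lower in H2452 and 2.10-fold lower in H28. The 1.54-fold fall in H2052 (FDR 0.00512) lost its call under both other scalings and without the block. In MSTO-211H the difference was -0.14 ± 0.19 (SE, 3 pairs, FDR 0.581), and its sign flipped to 0.02 and 0.03 under the other scalings and to 0.14 without the third experiment.

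UHRF1 was at 2970 and 1136 CP20M in DMSO and 622 and 348 CP20M with palbociclib in H2052. In H2452 it was at 2203, 1784 and 2269 CP20M in DMSO and at 224, 242 and 220 CP20M with the drug, the widest separation of this gene. H28 had 3097, 2005 and 2342 CP20M against 541, 575 and 357 CP20M. MSTO-211H had 1450, 878 and 1896 CP20M in DMSO and 912, 606 and 807 CP20M with the drug, with groups that overlapped. UHRF1 fell by 2.06 ± 0.25 over the 11 pairs (SE, log2, limma FDR 2.60e-05), which was 3.89-fold in H2052, 8.74-fold in H2452, 4.99-fold in H28 and 1.75-fold in MSTO-211H (FDR 0.0178). The call of UHRF1 in MSTO-211H was lost without the block (FDR 0.0797), without the third experiment (FDR 0.0826), without the filter (FDR 0.0743) and with the filter over all libraries (FDR 0.0508).

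SUV39H1, a methyltransferase that places trimethylation on lysine 9 of histone H3 in heterochromatin (chrX:48695554-48709016, plus strand), had the lowest mean level per kilobase over the sensitive lines, at 137 CP20M in DMSO and 69.4 CP20M with palbociclib, although EZH2 was lower in H2052 in DMSO, at 104 against 130 CP20M per kilobase, and other members were lower in H2052 and H2452 with the drug. Its DMSO libraries ranged from 133 to 573 CP20M (median 360) and its treated libraries from 122 to 264 CP20M (median 191). Values overlapped only in MSTO-211H, with 234, 133 and 340 CP20M in DMSO and 216, 122 and 195 CP20M with the drug. The pooled change was -0.87 ± 0.14 (SE, 11 pairs, limma FDR 0.000168), with a 2.02-fold fall in H2052, 2.56-fold in H2452 and 1.79-fold in H28. The call of SUV39H1 in H2052 was lost without the filter (FDR 0.0755), with the filter over all libraries (FDR 0.0516) and without the block (FDR 0.0542), and that in H28 without its first experiment (FDR 0.0624). The 1.26-fold lower level in MSTO-211H was not called (FDR 0.229).

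Promoter windows of LMNB1, EZH2 and UHRF1, which were called lower, and of LMNA are shown. They let the motifs of cell cycle control be read beside these values. Each window shown holds a match to a motif named below, and each of these genes also has a listed window with no match. The sequences are from RefSeq on GRCh38.p14, 270 bases from 250 before to 20 after an annotated start, 5′ to 3′ on the gene's strand. Capitals mark matches on either strand to TTTGGCGC, TTTCGCGC or TTCCCGCC (forms of the E2F site), to TTTGAA or TTCGAA (forms of the cell cycle homology region, CHR) and to CCAAT (the NF-Y box), and no matches overlapped in the members' windows.
LMNB1 (chr5:126776886-126777155, plus strand): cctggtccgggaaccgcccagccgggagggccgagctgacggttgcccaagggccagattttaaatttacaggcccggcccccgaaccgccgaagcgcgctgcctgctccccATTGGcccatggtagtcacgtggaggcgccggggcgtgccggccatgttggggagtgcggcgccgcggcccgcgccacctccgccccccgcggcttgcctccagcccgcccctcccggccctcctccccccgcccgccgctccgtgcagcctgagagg
EZH2 (chr7:148884272-148884541, minus strand): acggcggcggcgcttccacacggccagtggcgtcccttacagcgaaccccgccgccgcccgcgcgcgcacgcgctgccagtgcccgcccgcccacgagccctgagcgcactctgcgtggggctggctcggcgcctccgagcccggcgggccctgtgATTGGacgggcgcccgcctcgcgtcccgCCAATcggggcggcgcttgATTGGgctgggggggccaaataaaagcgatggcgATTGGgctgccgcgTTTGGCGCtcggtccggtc
UHRF1 (chr19:4909894-4910163, plus strand): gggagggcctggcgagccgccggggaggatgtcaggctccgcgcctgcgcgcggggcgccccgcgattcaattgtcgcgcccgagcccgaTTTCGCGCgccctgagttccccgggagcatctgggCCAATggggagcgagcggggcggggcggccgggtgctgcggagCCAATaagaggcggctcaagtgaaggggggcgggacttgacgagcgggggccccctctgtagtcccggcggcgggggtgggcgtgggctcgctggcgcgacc
LMNA (chr1:156082323-156082592, plus strand): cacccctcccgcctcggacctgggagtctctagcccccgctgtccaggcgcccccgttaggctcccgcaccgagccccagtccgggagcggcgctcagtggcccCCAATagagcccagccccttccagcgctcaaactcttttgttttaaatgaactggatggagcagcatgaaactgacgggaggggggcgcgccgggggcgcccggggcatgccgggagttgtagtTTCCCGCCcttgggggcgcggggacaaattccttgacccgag

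Windows of 300 bases were listed for 9 of the 10 members, all but HMGB2. These were 18 windows in all, searched together with all 35093 windows of the reference table. An E2F form occurred in 5 of the 18 windows, of DNMT1, EZH2, LMNA and UHRF1, against 4.24% of all windows. CCAAT occurred in 8 of the 18 windows against 34.6% of all, and a CHR form in 2, of HMGB1 and LMNB2, against 16.4% of all. The windows of LMNB1 held CCAAT and none of the E2F or CHR letters, and LBR had no match to any of the motifs. The E2F letters of LMNA, the member that was not called, lie in 1 of its 3 listed windows.

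Whether the 4 sensitive lines responded alike was tested with an F test of the change among lines. It called 7 of the 10 members, against 38.6% of all genes tested. UHRF1 differed most (F = 27.8, limma FDR 0.000674), followed by LMNB2 (F = 14.5, FDR 0.00375), LMNB1 (F = 13.1, FDR 0.00486) and LMNA (F = 10.8, FDR 0.00784). DNMT1 (F = 8.71, FDR 0.0135), LBR (F = 6.27, FDR 0.0290) and SUV39H1 (F = 5.98, FDR 0.0324) were also called. The call of LBR was lost under both other scalings (FDR 0.0814 and 0.116), without the filter and when any 1 of 6 experiments of H2052, H2452 and H28 was left out, and that of SUV39H1 without the filter and when any 1 of 4 experiments of H2452 and MSTO-211H was left out. No difference was called for HMGB2 (FDR 0.280), EZH2 (FDR 0.314) or HMGB1 (FDR 0.947), whose changes by line spanned 3.78 to 7.58-fold, 3.05 to 4.72-fold and 2.26 to 2.54-fold. Without the first experiment of MSTO-211H, HMGB2 was called (F = 10.3, FDR 0.00930). Without the block the F test called 3 of the 10 members. MKI67 fell 32.1-fold in H2452 and 4.72 to 5.77-fold in the other lines. In H2452, LMNB1, UHRF1, EZH2, LMNB2, SUV39H1, HMGB1 and DNMT1 also had their largest mean falls of the 4 lines, and the part of the share of cycling cells in this order was not tested.

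Line by line, all 10 members were called lower in H2052 (background 22.9%), while H2452 had 9 (12.6%), H28 had 8 (10.9%) and MSTO-211H had 7 (13.8%). The 3 genes not called in MSTO-211H were LMNA, DNMT1 and SUV39H1. In that line, 8 of the 10 cycling reference genes were called lower.

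**Figure D2:**
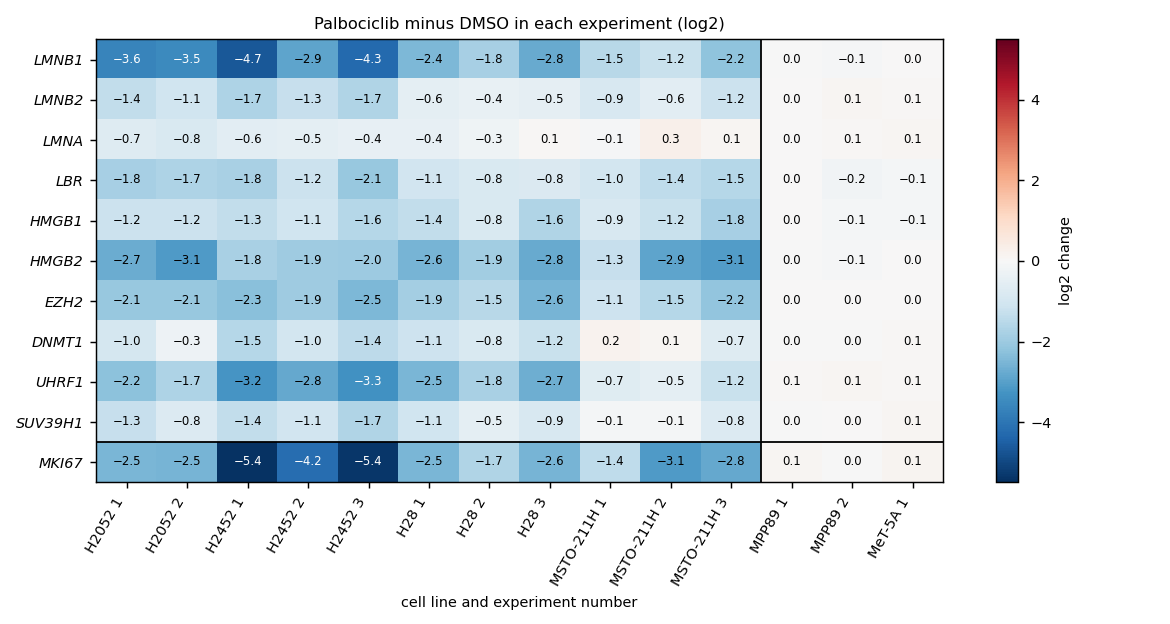
Palbociclib minus DMSO of each gene in each of the 14 experiments, as differences of log2(CP20M + 10) on a colour scale from -5.5 to 5.5, with MKI67 in the last row as the cycling reference. The 11 columns left of the vertical line are the sensitive lines, where LMNB1 ranges from -4.67 to -1.20 and LMNA from -0.84 to 0.26, and the 3 columns to its right are MPP89 and MeT-5A.

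In the resistant lines none of the 10 genes was called by limma, and none of the 15524 genes tested was called either (0%), with 1363 genes at an unadjusted p under 0.05. LMNB1 was at 2673 and 2655 CP20M in DMSO and 2597 and 2518 CP20M with palbociclib in MPP89, and at 5604 and 5770 CP20M in MeT-5A. EZH2 was at 619 and 752 CP20M against 630 and 767 CP20M in MPP89, and at 2094 against 2113 CP20M in MeT-5A. The palbociclib libraries of both genes thus lay close to their DMSO partners. The pooled differences of the 10 genes ran from -0.10 for LBR (95% confidence interval -0.20 to -0.01, FDR 0.524) to 0.08 for UHRF1 (-0.01 to 0.16). The interval for LMNB1 was -0.11 to 0.06, for HMGB2 -0.09 to 0.07 and for EZH2 -0.08 to 0.12, all inside the fold threshold. The signs of the EZH2 and DNMT1 differences, both 0.02, flipped under the other scalings. None of the cycling reference genes was called in these lines, and their median difference was -0.0015.

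The difference in response between sensitive and resistant lines was tested as an interaction. It was called for 8 of the 10 members, all with the larger fall in the sensitive lines, against 7.92% of 17517 genes tested. The differences were -2.79 for LMNB1 (limma FDR 0.00980), -2.36 for HMGB2 (FDR 0.000939), -2.14 for UHRF1 (FDR 0.0174) and -1.99 for EZH2 (FDR 0.000512). LBR (-1.28), HMGB1 (-1.21), LMNB2 (-1.07) and SUV39H1 (-0.93, FDR 0.0429) were called as well. DNMT1 (-0.83, FDR 0.0979) and LMNA (-0.37, FDR 0.252) were not. The call of SUV39H1 was lost under both other scalings (FDR 0.109 and 0.108), without the filter (FDR 0.0827), without the block (FDR 0.0965) and when any 1 of 7 experiments of the sensitive lines was left out (FDR 0.0515 to 0.0613). DNMT1 was called without the first (FDR 0.0390) or the second (FDR 0.0481) experiment of MSTO-211H. With 3 resistant pairs the count depended on each of them, and was 3 without the first and 4 without the second experiment of MPP89, and 4 without MeT-5A. LMNB1 (FDR 0.0614 to 0.0670), LMNB2, UHRF1 and SUV39H1 lost their calls whichever resistant pair was left out. LBR lost its call without the first experiment of MPP89.

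After washout for 48 h, 5 of the 10 genes were called higher than with palbociclib and 4 were called lower than in DMSO. Without a test, 9 of the 10 were higher than with palbociclib in all 4 lines and 8 were lower than in DMSO in all 4. The comparison rests on 12 libraries, a DMSO, a palbociclib and a washout library of 1 experiment in each of the 4 sensitive lines, with the line as block, and the contrasts below share these libraries. The genes called higher than with palbociclib were LMNB1, HMGB1, HMGB2, EZH2 and UHRF1, against 1.61% of 16317 genes tested. Compared with DMSO, 4 members were still called lower, against 3.16% of genes: LBR, HMGB1, HMGB2 and EZH2. In the same experiments 9 members were lower with palbociclib than with DMSO, against 13.6% of genes. The counts after washout are fragile. No member was called higher than with palbociclib without H2052 or without MSTO-211H, 3 were without H2452, and 3 were under either other scaling. For the contrast with DMSO, 2 members were called without H28 and none without MSTO-211H, and without the line as block neither contrast called a member. The rise of UHRF1 was not called when any 1 of the 4 lines was left out (FDR 0.0841 to 0.252), nor under either other scaling (FDR 0.0796 and 0.0890).

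LMNB1 in DMSO, palbociclib and washout libraries was at 1062, 85 and 588 CP20M in H2052, and at 2066, 97 and 1507 CP20M in H2452. In H28 the values were 3795, 546 and 1412 CP20M, and in MSTO-211H 1553, 327 and 790 CP20M. Every washout library lay between the other libraries of its experiment, at 55.4%, 72.9%, 37.2% and 50.9% of DMSO in the order of the lines. LMNB1 rose by 2.27 ± 0.36 (SE, 4 lines, limma FDR 0.0184) from palbociclib, and its remaining difference from DMSO of -0.92 was not called (FDR 0.120, 95% confidence interval -1.73 to -0.11).

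LBR regained the lowest share of its fall among the members, on the log2 scale. It was at 52.9%, 54.3%, 59.9% and 52.4% of DMSO after washout in H2052, H2452, H28 and MSTO-211H, and at 30.3%, 23.0%, 57.3% and 33.9% with palbociclib. All 4 washout libraries were thus within a narrow range well below DMSO. The rise from palbociclib of 0.67 was not called (FDR 0.119), but without H28 it was 0.88 and was called (FDR 0.0322). The difference from DMSO of -0.86 ± 0.18 was called (SE, 4 lines, FDR 0.0173), and was not called without H2052 (FDR 0.0894) or without MSTO-211H (FDR 0.0939). On the log2 scale LBR regained 43.8% of its fall, LMNB1 71.2% and MKI67 89.9%. The members other than LBR ranged from 57.5% for LMNA to 79.9% for DNMT1, with HMGB1 at 58.3% and HMGB2 at 58.5%. Each share is the mean rise divided by the mean fall over the 4 lines, and the shares were not compared by a test. In log2 units the mean rises of SUV39H1 (0.61) and LMNA (0.16) were smaller than that of LBR.

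HMGB2 stood at 59.7%, 68.0%, 30.4% and 34.0% of DMSO after washout, and EZH2 at 68.8%, 63.2%, 37.0% and 51.9%, in the same order of lines. H28 and MSTO-211H were lower than H2052 and H2452 for both genes. The difference of HMGB2 was 1.60 from palbociclib (FDR 0.0143) and -1.13 from DMSO (FDR 0.0150), and that of EZH2 was 1.45 from palbociclib (FDR 0.00628) and -0.88 from DMSO (FDR 0.00966). HMGB1 rose by 0.91 (FDR 0.0197) and was still lower than DMSO (-0.65, FDR 0.0243). UHRF1 rose by 1.58 (FDR 0.0434) and its difference from DMSO of -0.65 was not called (FDR 0.206).

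LMNB2 (0.74), DNMT1 (0.73), SUV39H1 (0.61) and LMNA (0.16) showed differences from palbociclib that were not called, with FDR values from 0.107 to 0.740. DNMT1 in the washout library of H2052 reached 132% of DMSO, and LMNA in that of MSTO-211H 116%. MKI67 was at 146% and 108% of DMSO after washout in H2052 and H2452, and at 45.0% and 55.3% in H28 and MSTO-211H. Of the cycling reference genes 8 of 10 were called higher than with palbociclib and 0 of 10 lower than DMSO. Washout cultures had the same line and experiment as their controls but a single library each, and 48 h more in culture.

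**Figure D3:**
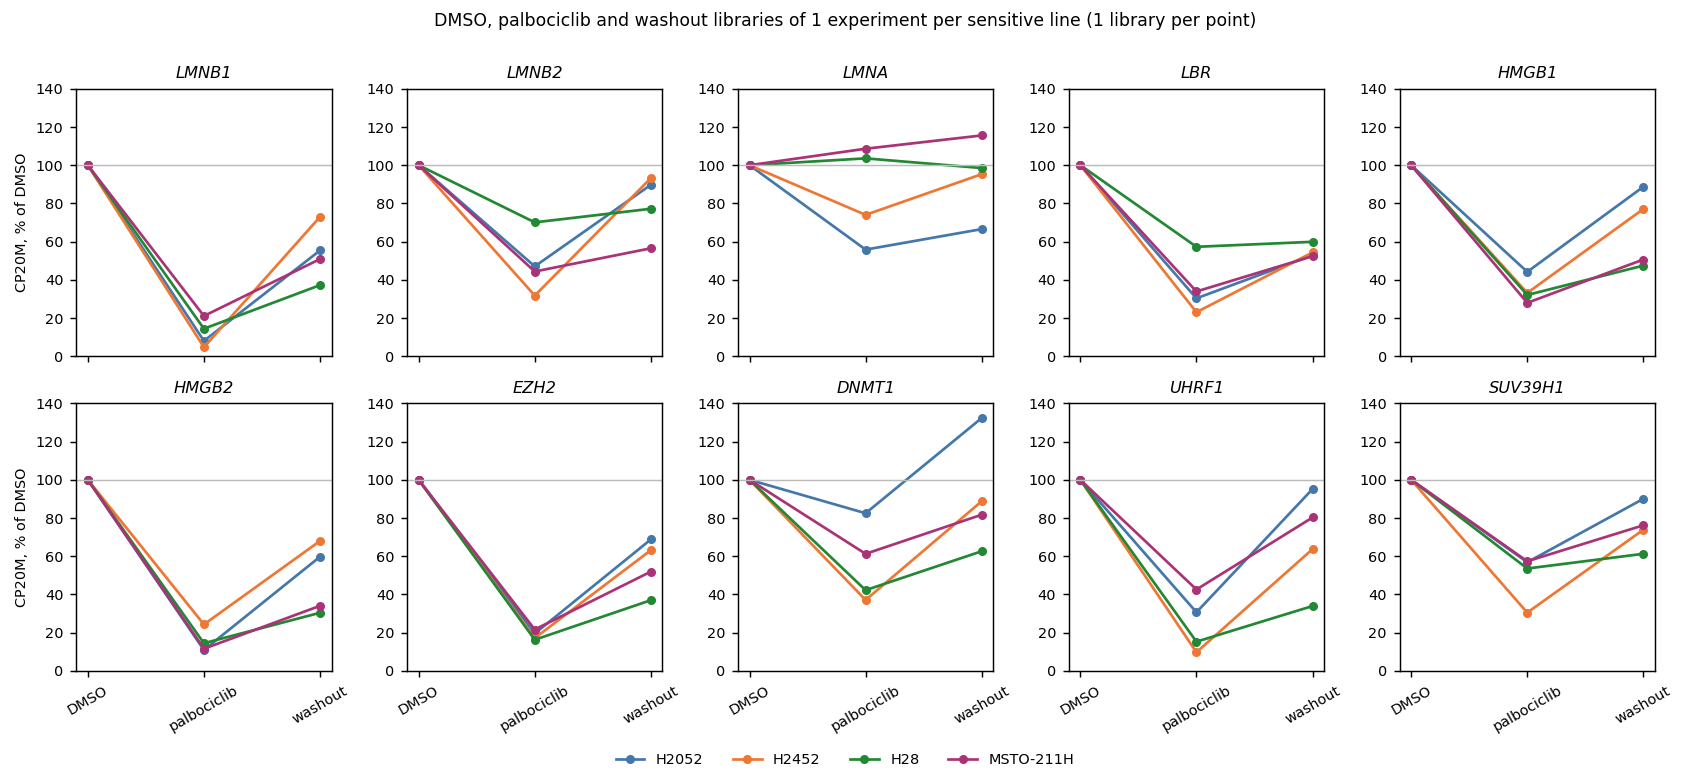
Level of each gene in the DMSO, palbociclib and washout libraries of 1 experiment per sensitive line, as a percentage of the DMSO library on a linear axis from 0 to 140. Each point is 1 library and the lines join libraries of a cell line. LBR ends between 52.4% and 59.9% of DMSO in the 4 lines, and LMNB1 between 37.2% and 72.9%.

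Levels in DMSO differed among the 6 lines for 9 of the 10 genes (limma F test), as they did for 96% of all genes tested, and UHRF1 was the gene without a call (F = 2.17, FDR 0.128). UHRF1 was called under upper-quartile scaling (FDR 0.0310) and without either H2052 library (FDR 0.0165 and 0.0183). DNMT1 (FDR 0.0414) lost its call under both other scalings (FDR 0.0803 and 0.0664), without the trend or the filter, and when any 1 of 8 libraries was left out. EZH2 had the largest F (26.1), with a mean of 277 ± 102 CP20M (SD, n = 2) in H2052 and 1430 ± 85.1 CP20M (SD, n = 3) in H28, and 2094 CP20M in the DMSO library of MeT-5A. LMNB1 had 1128 ± 387 CP20M (SD, n = 3) in MSTO-211H and 3957 ± 574 CP20M (SD, n = 3) in H28. The single DMSO library of MeT-5A was above the DMSO mean of every other line for all members but LMNA. For LMNB2, LBR, UHRF1 and SUV39H1, at least 1 DMSO library of another line was higher. HMGB1 was at 11825 CP20M in DMSO in MeT-5A, and its untreated library had 6853 CP20M of HMGB1. HMGB2 was 1.08 and DNMT1 0.78 higher on the log2 scale in the mean of the resistant lines than in that of the sensitive lines. The exact permutation test over the 15 choices of 2 lines gave p = 0.0667 for both, the smallest it allows, and 0.333 after Benjamini-Hochberg adjustment over the 10 genes.

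Partners of the set were described with gene lists by function over the 11 sensitive pairs, by counts and medians beside the median of -0.11 for all genes and the background of 9.5% called lower. No gene of any list was called higher. The list calls were made on the deposited scaling and were not rerun under the other scalings. Those scalings raised the median of all genes by 0.17 and 0.16, and the genes called lower went from 1592 to 875 and 906. Of 21 nuclear envelope partners and lamin-processing genes, 3 were called lower, and the list median was -0.21. They were TMPO, which encodes the lamin-binding LAP2 proteins (-1.96, FDR 2.25e-06), SYNE2, which encodes a nesprin that ties the nucleus to the cytoskeleton (-1.11), and SUN2, its partner in the inner membrane (-0.67). Of 28 nuclear pore genes, 11 were called lower with a median of -0.48, led by NUP210 (-1.64), NUP54 (-0.95) and NUP160 (-0.90).

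Among 10 other high mobility group genes, HMGN2 (-1.23) and HMGA1 (-0.90) were called lower, and the median was -0.34. Of 13 other genes of Polycomb repressive complex 2 and H3K27 demethylation, PHF19, an accessory subunit (-1.90, FDR 1.41e-05), and RBBP7, a histone-binding subunit (-0.59), were called lower, with a list median of -0.39. Other DNA methylation genes had 5 of 15 called lower and a median of -0.52, with CDCA7 (-1.84) and the remodeller HELLS (-1.52), which form a complex, and the de novo methyltransferase DNMT3B (-0.81) leading. Of 17 other H3K9 and heterochromatin genes 5 were called lower with a median of -0.29, led by SUV39H2 (-0.80), CBX3, which encodes HP1 gamma (-0.65), and TRIM28 (-0.63). Histone chaperones had 6 of 13 called lower and a median of -0.58, with HJURP (-2.26), the centromeric chaperone, and the replication-linked ASF1B (-1.95) and CHAF1B (-1.31) at the head. The cycling reference, with 10 of 10, was led by CDK1 (-3.12), MKI67 (-3.10) and TOP2A (-2.75). None of the listed genes was called in the resistant lines.

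**Figure D4:**
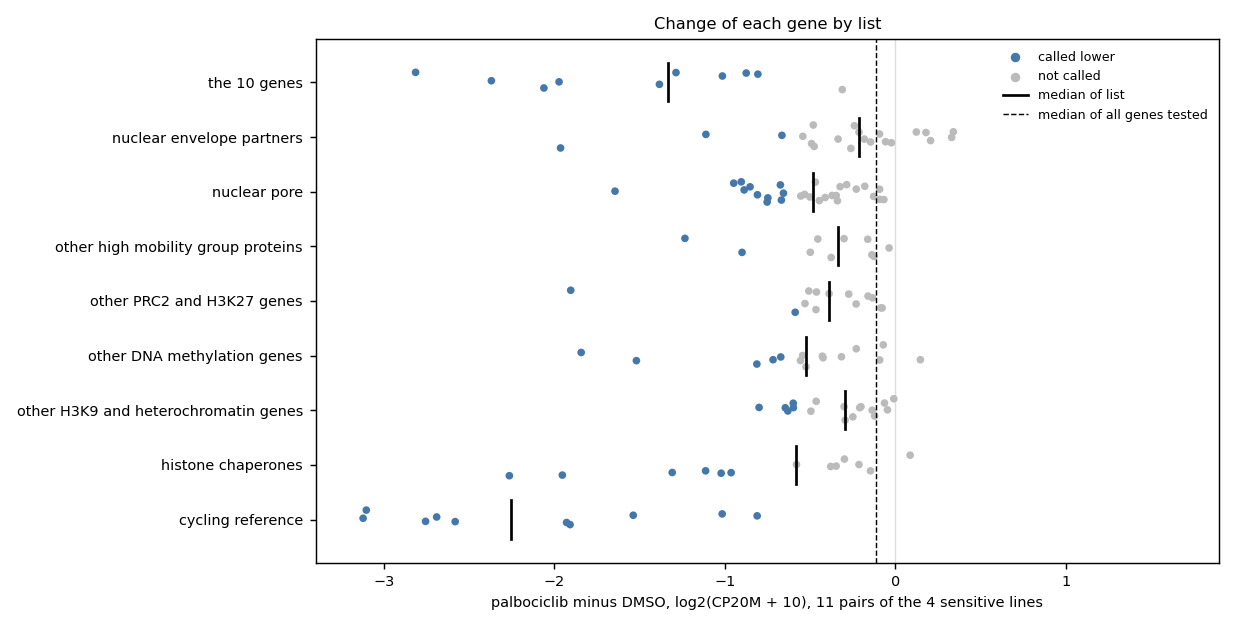
Pooled change of each gene over the 11 pairs of the 4 sensitive lines, as palbociclib minus DMSO of log2(CP20M + 10), by gene list. Points are genes, dark where called lower and grey where not called, bars are list medians and the dashed line is the median of all genes tested (-0.11). The 10 members have a median of -1.33, between the cycling reference at -2.25 and the other lists at -0.58 to -0.21.

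The genes whose changes were most like those of LMNB1 over the 14 pairs, among 17517 genes, were TRIM28 (Pearson r = 0.980), HIST1H1D (0.979), PAXX (0.978), CDC7 (0.968) and ZNF367 (0.965). For LMNA they were KIAA1257 (0.935), BAP1 (0.926), OTUD4 (0.910), ANKRD13C (0.908) and RRS1 (0.904). Pairs of a line share its genetic background, and the 3 resistant pairs lie near 0. Over the 11 sensitive pairs alone, r was 0.941 to 0.961 for the genes named for LMNB1. For those named for LMNA it was 0.894 to 0.961, and it was higher than over 14 pairs for KIAA1257 (0.949) and ANKRD13C (0.961). Within the set, the r with LMNB1 was 0.937 for SUV39H1 and 0.919 for UHRF1 over 14 pairs, and 0.885 and 0.819 over the 11 sensitive pairs. For HMGB2 it was 0.668 over 14 pairs and -0.04 over the 11 sensitive pairs.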

How the data were processed

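Per the labels and the study's methods, RNA was sequenced from directional libraries of cell lines, reads were trimmed with Trimmomatic 0.36, mapped with STAR 2.5.3 to GRCh38 (Ensembl release 90) and counted per gene with HTSeq 0.9.1. The deposited values are a normalized score, counts per 20000000 reads (CP20M) rounded up to whole numbers, so the DESeq2 model that the authors used on counts was not applied here. Treatment of reads that map to several places is not given in the sources used here.

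Genes at 100 CP20M or more in at least 1 library of a fit entered limma 3.58.1 in R 4.3.3 on the log2(CP20M + 10) scale (lmFit, eBayes with trend, two-sided), with Benjamini-Hochberg adjustment over all genes tested. The experiment was a block, because the study's methods pair DMSO and palbociclib cultures within each experiment. Deviations of same-numbered libraries from their group means correlated with r from 0.205 to 0.854 over 13 pairs, across genes. A call needed a fold change of 1.5 and an adjusted p under 0.05, or the adjusted p alone for interactions and F tests. Groups came from the labels, and the classes sensitive and resistant from the series' design text and the study. The functions were tested on simulated data. Identical values in a pair of replicate libraries made up at most 4.33% of 17803 genes, so each library was counted. Alternatives were the pseudocount, filter, scaling, block, eBayes trend, line means and leaving out libraries. Leaving out whole lines was added after seeing the data.

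All 10 members are named, whichever way they moved. From each list the genes called with the 3 largest falls are named, besides MKI67 and the 5 genes most like LMNB1 and LMNA in their changes. The members and lists were chosen with earlier results of these data known. Gene positions and canonical transcripts are from GENCODE 44 on GRCh38, and promoters from RefSeq. Tables were made with Python 3.11.15, pandas 2.3.3, numpy 2.4.6 and matplotlib 3.10.9. CP20M was divided by transcript length only to compare genes. No interval for counting error was computed, since the values are not counts.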

Additional observations from a re-analysis of the deposited data

Results flagged for a closer look

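Of 30 sets of 4 changes checked, 1 held a line far from the others, a flag that chance raises in about 1 of 20 sets. In the washout experiments SUV39H1 changed by -1.65 with palbociclib in H2452, while the nearest of the other lines was at -0.88, a gap of 0.881 of the whole range.

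By a limma interaction test, 8 members responded differently in sensitive and in resistant lines. The differences in log2 change were -2.79 for LMNB1, -1.07 for LMNB2, -1.28 for LBR, -1.21 for HMGB1, -2.36 for HMGB2, -1.99 for EZH2, -2.14 for UHRF1 and -0.93 for SUV39H1. The count fell to 3 or 4 whichever resistant pair was left out, and LMNB1, LMNB2, UHRF1 and SUV39H1 lost their calls each time.

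The response also differed among the 4 sensitive lines, by the F test, for 7 members. F was 13.1 for LMNB1, 14.5 for LMNB2, 10.8 for LMNA, 6.27 for LBR, 8.71 for DNMT1, 27.8 for UHRF1 and 5.98 for SUV39H1. UHRF1 ranged from a 1.75-fold fall in MSTO-211H to an 8.74-fold fall in H2452.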

How the results depend on the processing

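The 9 falls over the sensitive lines were called under every alternative run, and that comparison called 9 members whichever library or line was left out. Of 1880 values for single genes under alternatives, 1742 kept direction and side of the threshold, 118 lost it, 7 gained it and 13 changed sign. With no filter on low values, 5 instead of 10 members were called in H2052 and 3 instead of 7 in MSTO-211H, while the genes called lower went from 3237 to 201 and from 1987 to 501. Median-of-ratios and upper-quartile scaling gave 3 and 3 members higher after washout than with palbociclib. Without the replicate block, members called were 3 of 10 for the differences among sensitive lines, 0 higher after washout than with palbociclib, 0 lower after washout than in DMSO and 3 lower with palbociclib in the washout experiments (7, 5, 4 and 9 with it), and for the sensitive lines the count stayed at 9. Without each replicate, the interaction called 3 to 9 members, washout against palbociclib 0 to 5 and washout against DMSO 0 to 3. The share of calls that were lower, under median-of-ratios and upper-quartile scaling, went from 75.4% to 41.4% and 38.4% in H2052, from 63.3% to 43.5% and 35% in H2452, from 55.4% to 44.4% and 43.7% in H28, from 59.8% to 37.5% and 35.7% in MSTO-211H, from 83.3% to 39.7% and 46.7% for the interaction, from 50.6% to 29.5% and 38.2% for washout against DMSO and from 70.6% to 36.8% and 36.5% for palbociclib in the washout experiments. The changes of sign were of values near 0 and not called. They were DNMT1 in MSTO-211H (0.017 and 0.031 under the scalings, and -0.30 to 0.14 without each replicate), EZH2 in resistant lines (-0.0015 and -0.0035), DNMT1 in resistant lines (-0.0023 and -0.0043, and -0.0038 to 0.036 without each pair), LMNB1 (-0.059 to 0.00029) and HMGB2 (-0.030 to 0.016) in resistant lines without each pair, SUV39H1 in MPP89 (-0.0062, median-of-ratios), and LMNA after washout against palbociclib (-0.028, upper quartile) and against DMSO (-0.23 to 0.039 without each line). The cause of these shifts was not tested.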
